A study of Mus musculus with 8 samples.

Results

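Transcripts of the proteasome were followed in mouse macrophages that had or lacked the transcription factor NRF2 and were left untreated or given an electrophilic compound. Members were all genes of the deposited table with the symbol Psma, Psmb, Psmc, Psmd, Psme, Psmf or Psmg followed by a number, without pseudogenes, which gave 48 of 22165 genes. By role they were 14 genes of the constitutive core, 17 of the regulatory particle (9 base, 8 lid) and 5 of the immunoproteasome and its activator. The others were 3 chaperones of base assembly, 4 chaperones of core assembly, 3 other activators or inhibitors and 2 tissue-specific core subunits. Cells were bone marrow-derived macrophages from C57BL/6 animals, obtained by growing marrow in M-CSF for 7 days. The 4 groups were wild-type untreated, wild-type with 250 µM dimethyl itaconate (DI) for 12 h, Nrf2 knockout untreated and Nrf2 knockout with the same dose and time, with 2 libraries each. The Nrf2-/- mice came from a commercial breeder, so knockout cells lacked intact Nrf2 throughout differentiation as well as during treatment. The ages of the mice, the origin of the wild-type mice and the use of vehicle in untreated cells are not stated by the labels.

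The proteasome degrades proteins that carry ubiquitin chains. Its core is a barrel of alpha and beta rings with the cutting sites inside, and its regulatory particle caps the barrel, where the lid removes ubiquitin and the ATPases of the base unfold the substrate. Cells exposed to interferon exchange the 3 catalytic core subunits for immunoproteasome subunits, which alter the peptides offered on MHC class I. In mammals, core and regulatory particle genes are known targets of NRF1 (gene Nfe2l1), which is activated when proteasome activity falls, and some of them also respond to NRF2.

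Promoter windows from 250 bases before to 50 bases after a start of transcription are shown for members on which the comparisons turn. They cover a core subunit (Psmb5), a lid subunit (Psmd12), 2 catalytic immunoproteasome subunits (Psmb8, Psmb9) and a subunit of the PA28 activator (Psme1). The sequences are RefSeq's, from assembly GRCm38.p6, each 5′ to 3′ on the strand of its gene. Capitals mark matches, on either strand, to TGACNNNGC (the core of the antioxidant response element, bound by NRF2 and NRF1), CCAAT (the NF-Y box), the interferon-stimulated response element (a pair of GAAA with 2 bases between) or TTCNNNGAA (the gamma activated site). No marked matches overlapped each other in these 5 windows, which lie at chr14:54617946-54618245 on the minus strand (Psmb5), chr11:107479278-107479577 on the plus strand (Psmd12), chr17:34197945-34198244 on the plus strand (Psmb8), chr17:34187281-34187580 on the minus strand (Psmb9) and chr14:55578244-55578543 on the plus strand (Psme1).
Psmb5: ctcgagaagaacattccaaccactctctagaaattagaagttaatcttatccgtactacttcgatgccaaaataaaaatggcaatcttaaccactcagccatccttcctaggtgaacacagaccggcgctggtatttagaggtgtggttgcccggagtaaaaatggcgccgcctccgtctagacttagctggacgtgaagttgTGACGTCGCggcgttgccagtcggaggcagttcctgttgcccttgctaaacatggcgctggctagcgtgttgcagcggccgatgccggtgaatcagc
Psmd12: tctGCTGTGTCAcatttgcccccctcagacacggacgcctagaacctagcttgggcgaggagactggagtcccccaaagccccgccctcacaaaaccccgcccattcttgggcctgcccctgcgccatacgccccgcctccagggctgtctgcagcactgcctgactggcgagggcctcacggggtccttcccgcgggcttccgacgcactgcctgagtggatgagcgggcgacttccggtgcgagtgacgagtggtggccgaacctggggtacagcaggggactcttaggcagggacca
Psmb8: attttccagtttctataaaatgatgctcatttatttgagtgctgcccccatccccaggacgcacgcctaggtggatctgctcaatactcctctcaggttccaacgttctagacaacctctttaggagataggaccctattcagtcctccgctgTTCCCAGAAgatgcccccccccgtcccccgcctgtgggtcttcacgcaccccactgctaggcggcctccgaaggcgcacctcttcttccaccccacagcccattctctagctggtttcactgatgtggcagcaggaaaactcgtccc
Psmb9: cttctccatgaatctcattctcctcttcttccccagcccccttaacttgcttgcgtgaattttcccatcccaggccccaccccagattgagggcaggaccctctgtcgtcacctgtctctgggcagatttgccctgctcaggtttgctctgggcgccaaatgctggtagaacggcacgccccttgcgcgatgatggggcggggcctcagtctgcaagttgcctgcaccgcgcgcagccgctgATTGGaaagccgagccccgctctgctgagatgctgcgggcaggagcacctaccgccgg
Psme1: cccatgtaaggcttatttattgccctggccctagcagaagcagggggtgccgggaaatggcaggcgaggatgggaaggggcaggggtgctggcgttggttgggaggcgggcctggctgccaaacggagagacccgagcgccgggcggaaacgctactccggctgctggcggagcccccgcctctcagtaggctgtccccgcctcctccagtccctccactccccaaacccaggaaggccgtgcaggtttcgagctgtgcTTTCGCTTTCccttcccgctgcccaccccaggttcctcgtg

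Psmb5 held TGACGTCGC at 47 bases before its start, and Psmd12 held the minus-strand match GCTGTGTCA at 247 bases before its start. Psmb8 held the gamma activated site TTCCCAGAA, Psmb9 the reverse complement of CCAAT and Psme1 the interferon-stimulated element TTTCGCTTTC on the minus strand. A window was found for 40 of the 48 members. The antioxidant element core was in 6 of these 40 (15%), namely Psmb5, Psmb6, Psmc6, Psmd9, Psmd12 and Psme4, beside 12.4% of all 32817 windows. CCAAT was in 14 of 40 (35.0%) beside 37.4%, the interferon-stimulated element in 5 of 40 (12.5%) beside 3.43%, and the gamma activated site in 3 of 40 (7.5%) beside 8.29%. The 5 with the interferon-stimulated element were Psmb3, Psmd4, Psmd9, Psme1 and Psmg4, of which only Psme1 is an immunoproteasome gene. The windows of Psmb8, Psmb9 and Psme1 lie wholly inside the annotated genes, whose 5′ ends are at 34197721, 34187764 and 55578123. In these windows the bases before the annotated 5′ ends were thus not searched. A match is a description of letters in a window, and no binding was measured.

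Counts summed to between 5554288 and 15680671 per library, and the 48 members took 0.593% to 0.737% of them. Nfe2l2, which encodes NRF2, had 230 and 454 CPM (counts scaled to library size) in wild-type untreated libraries, and 40.2 and 53.0 CPM in knockout untreated libraries, a log2 difference of -2.87 (edgeR adjusted p = 0.0019). Reads were taken near transcript 3′ ends, so those remaining need not come from an intact transcript. All 10 macrophage markers were present, and their summed level was 4649 to 6723 CPM over the 8 libraries; 3 of the 10 fell under DI in each genotype. Summed stromal markers lay between 87.2 and 130 CPM in wild-type libraries and between 43.2 and 47.8 CPM in knockout libraries, with Lum at 0, and summed neutrophil markers between 245 and 378 CPM. Neutrophil markers were at 372 and 378 CPM in wild-type untreated libraries and at 319 CPM or less elsewhere; the part of other cells in the results was not tested. Fewer cells of a type and less RNA per cell cannot be told apart in such bulk samples. The labels do not say whether libraries of a group came from separate mice or cultures, and p-values therefore measure no more than how far these libraries spread, which may be technical.

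Of the 48 members, 47 had enough counts to be tested. Psmb11, the core subunit of the thymic cortex, had no count in any library, which allows up to 0.191 to 0.540 CPM depending on depth (3 counts, counting error only). Psma8, the testis form of an alpha subunit, had 0.525 to 3.95 CPM and passed none of the comparisons. Below, a gene rose or fell where its edgeR adjusted p over all 11079 tested genes was under 0.05, and values are CPM in replicates 1 and 2. Under DI, 5 members rose and 2 fell in wild-type cells, beside 6.51% of all tested genes that rose and 8.68% that fell. In knockout cells 5 rose and 1 fell, beside 4.49% and 4% of all tested genes. The genes that rose belonged to different classes: core, assembly and activator genes in wild type, and base and lid genes in the knockout. A call in only 1 genotype does not show that the effects differ. Of the genes that rose, only Psmb5 and Psmd12 passed the test of a difference between the DI effects. Both libraries of a group lay above both of the other group, or below, for 22 and 7 of 47 members in wild type (28.6% and 29.3% of all genes) and for 18 and 8 in the knockout (29.1% and 29.3%).

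**Figure D1:**
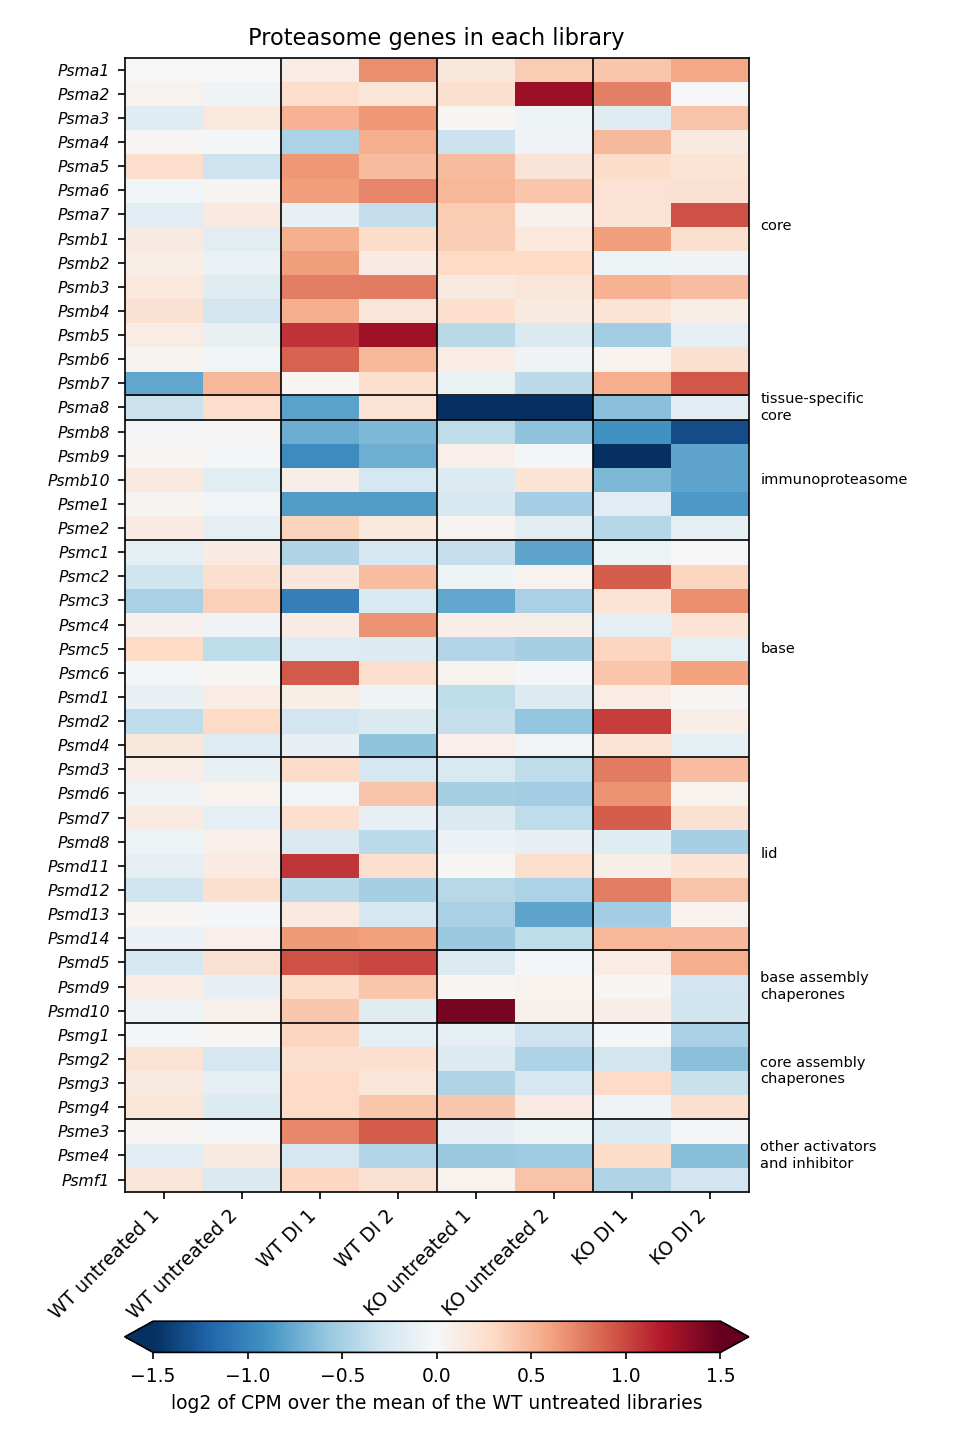
Each row is a proteasome gene, grouped by role, and each column a library; colour is the log2 ratio of its CPM to the mean of the wild-type untreated libraries. Core rows are mostly above 0 in the wild-type DI columns (medians 0.54 and 0.49). They are also mostly above 0 in the knockout columns, by less (medians 0.21 and 0.15 untreated, 0.25 and 0.23 with DI). Lid rows are mostly above 0 in the knockout DI columns.

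The core genes that rose under DI did so in wild-type cells. Of 14 core genes, 3 rose and none fell there (Psmb5, Psmb3 and Psma6), beside 6.51% and 8.68% of all tested genes. The median log2 difference was 0.42 beside -0.02 over all tested genes, and 13 of 14 were above 0 beside 48.8%. Both DI libraries lay above both untreated ones for 10 of the 14, beside 28.6% of all genes. In knockout cells none of the 14 passed the test in edgeR (1 at an unadjusted p under 0.05, and 1 called by DESeq2), with a median of 0.14 beside 0.005 over all genes. Both DI libraries lay above both untreated ones for 4 of 14, beside 29.1% of all genes. Summed over the 14 genes, where abundant members weigh most, core transcripts were at 1909 and 1934 CPM in wild-type untreated, 2228 and 2542 in wild-type DI, 2073 and 2284 in knockout untreated, and 2462 and 2482 in knockout DI libraries. DI libraries were above their controls by that sum in both genotypes, and the mean sum was highest with DI in the knockout.

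Psmb5 (ENSMUSG00000022193, chromosome 14, 54614119 to 54618022 on the minus strand of mm10) encodes the chymotrypsin-like catalytic subunit. It had 18.1 and 15.5 CPM in wild-type untreated libraries, 35.5 and 40.7 with DI, 12.6 and 14.4 in knockout untreated libraries, and 11.7 and 15.2 with DI. The wild-type DI libraries stood above all 6 others, which lay between 11.7 and 18.1 CPM. The log2 difference was 1.18 ± 0.23 (SE) in wild type (adjusted p = 0.00521) and -0.01 ± 0.24 in the knockout (adjusted p = 0.986). The difference between these effects was -1.19 ± 0.34 (adjusted p = 0.0498). In DI-treated cells Psmb5 was lower in knockout than in wild type by a log2 difference of -1.5 ± 0.24 (adjusted p = 0.00112), and this call held without each of the 8 libraries in turn, with adjusted p of at most 0.0126. Its rise in wild type missed the threshold only without wild-type untreated replicate 2 (adjusted p = 0.0534).

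The other catalytic core subunits did not pass the edgeR test. Psmb6, the caspase-like subunit, had 74.4 and 70.4 CPM in wild-type untreated and 134 and 102 in wild-type DI libraries, and 78.2 and 70.0 against 75.1 and 85.4 in the knockout. Its wild-type DI libraries were the highest of the 8, with a log2 difference of 0.70 ± 0.22 (adjusted p = 0.052) in wild type and 0.12 (adjusted p = 0.781) in the knockout. Psmb7, the trypsin-like subunit, had 39.5 and 96.0 CPM in wild-type untreated, 69.0 and 80.9 in wild-type DI, 63.3 and 51.7 in knockout untreated and 98.6 and 130 in knockout DI libraries. Its groups overlapped in wild type (log2 difference 0.14, adjusted p = 0.808) and not in the knockout (0.99 ± 0.35, adjusted p = 0.0953). DESeq2, an alternative test, called Psmb6 in wild type (adjusted p = 0.0285) and Psmb7 in the knockout (adjusted p = 0.0455).

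Psmb3, a non-catalytic beta subunit, had 113 and 89.3 CPM in wild-type untreated libraries and 173 and 174 with DI, a log2 rise of 0.78 ± 0.21 (adjusted p = 0.029). Knockout libraries had 111 and 115 CPM untreated and 145 and 140 with DI, which did not overlap (log2 difference 0.34, adjusted p = 0.342). Psma6, an alpha-ring subunit, had 83.9 and 89.2 CPM in wild-type untreated libraries and 134 and 144 with DI, a log2 rise of 0.68 ± 0.20 (adjusted p = 0.0422). In the knockout the order was the opposite, with 122 and 115 CPM untreated and 101 and 101 with DI (log2 difference -0.23, adjusted p = 0.507), and the difference between the effects did not pass (-0.91, adjusted p = 0.072). Without each library in turn the log2 difference in wild type was 0.613 to 0.956 for Psmb3 and 0.636 to 0.769 for Psma6. The calls of both genes were lost in several of these fits. That of Psmb3 was lost without knockout untreated replicate 1 (adjusted p = 0.05, just above the threshold before rounding) or 2 (0.0591), wild-type untreated replicate 2 (0.195), wild-type DI replicate 1 (0.0635) or 2 (0.0696). That of Psma6 was lost without knockout untreated replicate 1 (0.0691) or 2 (0.0825), wild-type untreated replicate 1 (0.147) or 2 (0.129), and wild-type DI replicate 1 (0.0696) or 2 (0.111).

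Psma4, an alpha subunit, had 535 and 524 CPM in wild-type untreated, 380 and 773 in wild-type DI, 424 and 512 in knockout untreated and 742 and 580 in knockout DI libraries. Its replicates in the wild-type DI group lay on either side of the untreated ones, and it passed neither test (adjusted p = 0.812 and 0.317). Psmb2, a beta subunit, had 156 and 136 CPM in wild-type untreated and 226 and 159 in wild-type DI libraries, and 180 and 180 against 139 and 141 in the knockout. It was thus higher with DI in both wild-type libraries and lower in both knockout libraries, without passing either test (adjusted p = 0.258 and 0.336). The remaining 7 core genes, Psma1, Psma2, Psma3, Psma5, Psma7, Psmb1 and Psmb4, had log2 differences from -0.23 to 0.59 in wild type and from -0.43 to 0.40 in the knockout.

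**Figure D2:**
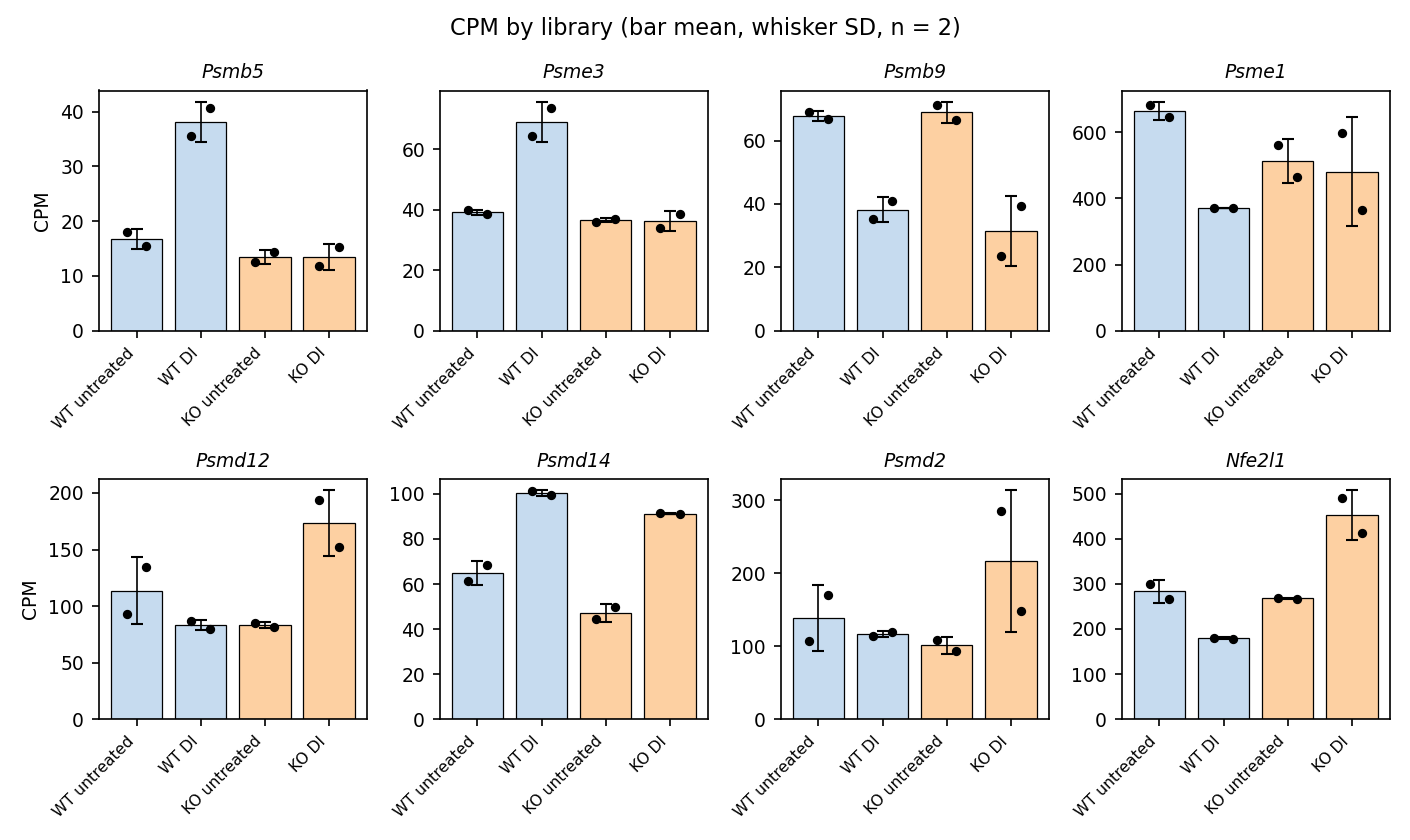
CPM of single proteasome genes and of Nfe2l1 in the 4 groups. Points are libraries, bars are means of 2 libraries, whiskers are their SD and each axis starts at 0. Psmb5 is highest in both wild-type DI libraries (35.5 and 40.7 CPM), and Psmd12 in both knockout DI libraries (194 and 152 CPM).

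Regulatory particle subunits showed the other arrangement, with higher levels under DI in knockout cells. Of 17 genes, 5 rose and none fell in the knockout, beside 4.49% and 4% of all tested genes. The median log2 difference was 0.58 beside 0.005 over all tested genes, and 14 of 17 were above 0 beside 50.2%. Both DI libraries lay above both untreated ones for 12 of the 17, beside 29.1% of all genes. The median was 0.90 over the 8 lid genes, 4 of which rose, and 0.51 over the 9 base genes, 1 of which rose. In wild-type cells none of the 17 passed in edgeR (3 at an unadjusted p under 0.05, and 1, Psmd14, called by DESeq2), with a median of 0.02. Untreated knockout cells were themselves low: compared with untreated wild type the median was -0.30 beside -0.01 over all genes, and 11 of 17 lay below without overlap beside 21.7% of all genes, though none passed (3 lower at an unadjusted p under 0.05, and none called by DESeq2). The DI effect in the knockout and this comparison share the knockout untreated libraries.

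The lid holds the deubiquitinase Psmd14, which cuts the chain from the substrate (chromosome 2, 61711694 to 61800376, plus strand). It had 44.3 and 49.9 CPM in knockout untreated libraries and 91.5 and 91.0 with DI, a log2 rise of 0.95 ± 0.21 (adjusted p = 0.0189). In wild type it had 61.2 and 68.6 CPM untreated and 101 and 99.4 with DI, a log2 difference of 0.63 ± 0.21 (adjusted p = 0.059). Its DI libraries lay above the untreated ones in both genotypes, and the difference between the effects was 0.32 (adjusted p = 0.507).

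Psmd12, a scaffold subunit of the lid (chromosome 11, 107479484 to 107504362, plus strand), had 85.2 and 81.6 CPM in knockout untreated libraries and 194 and 152 with DI, a log2 rise of 1.05 ± 0.24 (adjusted p = 0.022). In wild type it had 92.5 and 135 CPM untreated and 86.6 and 80.1 with DI (log2 difference -0.45, adjusted p = 0.229). The knockout DI libraries were the highest of the 8 and the wild-type DI libraries lay below their controls. The effects differed by 1.5 ± 0.34 (adjusted p = 0.0225), and with DI it was higher in knockout than in wild type by 1.05 ± 0.24 (adjusted p = 0.0102).

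Psmd3, another lid scaffold, had 40.8 and 36.8 CPM in knockout untreated libraries and 82.1 and 66.0 with DI, a log2 rise of 0.93 ± 0.25 (adjusted p = 0.0374). Its wild-type values, 51.4 and 44.2 CPM untreated and 57.8 and 39.7 with DI, overlapped. Psmd6, also of the lid, had 56.5 and 55.5 CPM in knockout untreated libraries and 127 and 82.7 with DI, a log2 rise of 0.90 ± 0.26 (adjusted p = 0.0499), and 76.8 and 82.5 against 77.4 and 107 CPM in wild type. The knockout replicates with DI lay further apart for this gene than the replicates of any other group. Psmd11, the lid subunit with the largest log2 difference in wild type, had 210 and 250 CPM in wild-type untreated and 482 and 272 in wild-type DI libraries (log2 difference 0.71, adjusted p = 0.0946). Knockout libraries had 234 and 276 against 244 and 265 CPM, a log2 difference of -0.01. The other lid genes, Psmd7, Psmd8 and Psmd13, together with Psmd6 had log2 differences from -0.31 to 0.21 in wild type. In the knockout the log2 difference was 0.90 for Psmd7 (edgeR adjusted p = 0.0525), -0.22 for Psmd8 and 0.44 for Psmd13. Knockout DI libraries lay above their controls for Psmd7 and below them for Psmd8. DESeq2 called Psmd7 in the knockout (adjusted p = 0.0166).

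In the base, Psmd2, a scaffold that receives ubiquitin receptors, had 109 and 92.9 CPM in knockout untreated libraries and 285 and 148 with DI, a log2 rise of 1.10 ± 0.31 (adjusted p = 0.0498). Its wild-type libraries had 107 and 171 CPM untreated and 114 and 119 with DI. Knockout DI replicate 1 was the highest of all 8, and knockout DI replicate 2 lay below wild-type untreated replicate 2. Psmc3, an ATPase of the base, had 82.4 and 100 CPM in knockout untreated and 162 and 229 in knockout DI libraries, a log2 difference of 1.10 ± 0.33 that missed the threshold in edgeR (adjusted p = 0.0609). DESeq2 called Psmc3 there (adjusted p = 0.0173). Its wild-type libraries had 101 and 181 CPM untreated and 69.3 and 121 with DI (-0.57, adjusted p = 0.265), so the pair of effects had opposite signs. The effects differed by 1.66 ± 0.47, with an adjusted p that rounds to 0.05 and lies just under it, and with DI the knockout was higher by 1.04 ± 0.33 (adjusted p = 0.0436).

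The ATPases Psmc2, Psmc4 and Psmc6 passed neither DI comparison. Psmc6 had 105 and 107 CPM in wild-type untreated and 201 and 127 in wild-type DI libraries, and 110 and 104 against 141 and 160 in the knockout. Its DI libraries were above their controls in both genotypes. Psmc4 had 49.5 and 45 CPM in wild-type untreated, 51.5 and 75.4 in wild-type DI, 50.4 and 50 in knockout untreated and 42.6 and 54.6 in knockout DI libraries. Psmc2 had 59.2 and 85.8, 81.5 and 99.8, 69.3 and 75.3, and 136 and 90.5 CPM in the same order of groups. The other 4 base genes, Psmc1, Psmc5, Psmd1 and Psmd4, had log2 differences from -0.35 to 0.02 in wild type and from 0.02 to 0.58 in the knockout.

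All 5 rises in the knockout were lost without either knockout untreated library or without knockout DI replicate 1. Without knockout untreated replicate 1 the adjusted p was 0.145 for Psmd12, 0.172 for Psmd14, 0.165 for Psmd3, 0.227 for Psmd6 and 0.189 for Psmd2. Without knockout untreated replicate 2 it was 0.162, 0.116, 0.227, 0.235 and 0.265 in the same order of genes, and without knockout DI replicate 1 it was 0.128, 0.0716, 0.184, 0.303 and 0.364. Psmd6 also missed it without wild-type untreated replicate 1 (0.0667) or 2 (0.0658), and Psmd2 without wild-type untreated replicate 1 (0.0507) or wild-type DI replicate 1 (0.0584) or 2 (0.058). The median over the 17 genes in these fits stayed between 0.55 and 0.80.

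**Figure D3:**
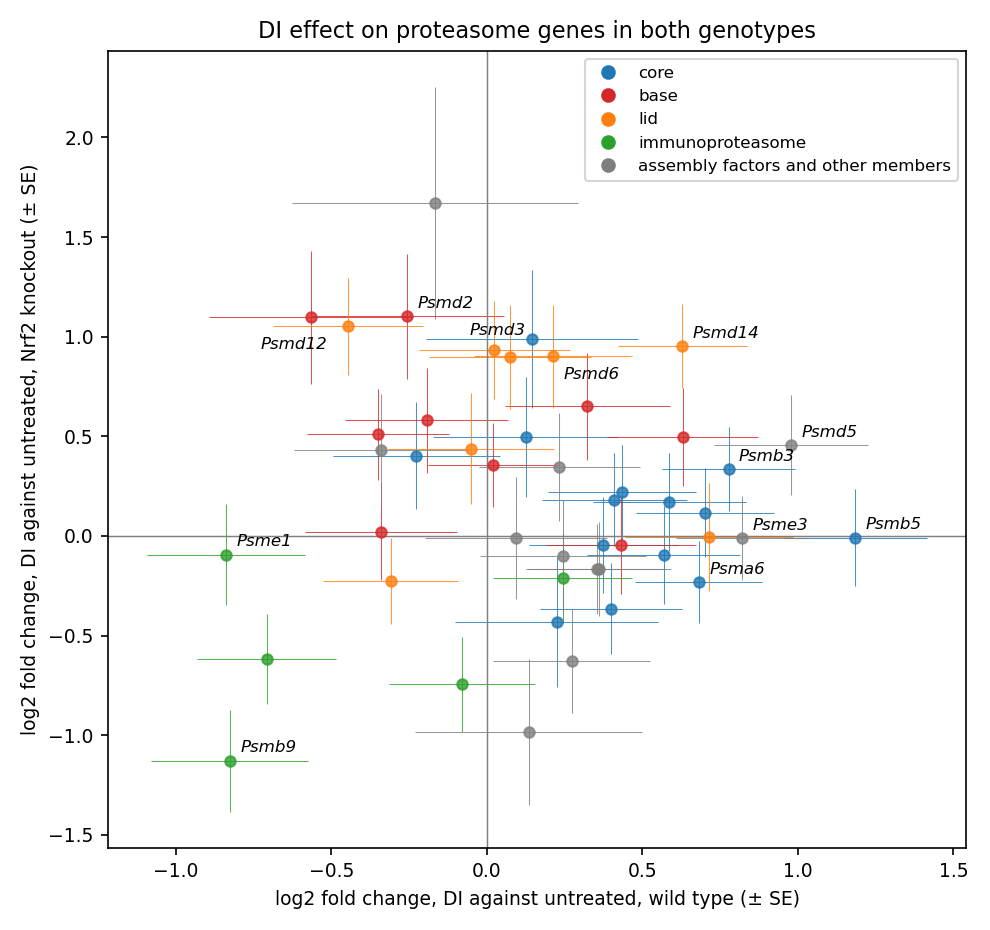
Each point is a tested proteasome gene, with its log2 fold change under DI in wild type (x) and in the Nrf2 knockout (y); bars are standard errors of the fit, and genes called in either comparison are named. Of the 14 core points, 13 lie right of 0 and Psma7 left of it, with Psmb7 the highest (0.99 in the knockout); 14 of 17 base and lid points lie above 0, and 4 of 5 immunoproteasome points lie left of and below 0.

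Immunoproteasome genes had lower mean levels under DI in both genotypes, except Psme2 in wild type. Of the 5 genes, 2 fell in wild type (Psmb9 and Psme1) and 1 in the knockout (Psmb9), beside 8.68% and 4% of all tested genes. The median log2 differences were -0.71 and -0.62. None rose, and none was higher at an unadjusted p under 0.05 or by DESeq2. DI libraries lay below untreated ones without overlap for 3 of 5 in each genotype, beside 29.3% of all genes in each. The median difference between the DI effects was -0.30, and none of the 5 passed that test (none at an unadjusted p under 0.05 in edgeR, and none called by DESeq2).

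Psmb9 encodes the subunit that replaces Psmb6 (chromosome 17, 34181987 to 34187764, minus strand). It had 68.9 and 66.6 CPM in wild-type untreated and 35.3 and 40.9 in wild-type DI libraries, and it fell by 0.83 ± 0.25 on the log2 scale (adjusted p = 0.0458). In the knockout it had 71.2 and 66.5 CPM untreated and 23.7 and 39.3 with DI, and it fell by 1.13 ± 0.26 (adjusted p = 0.0204). All 4 DI libraries lay below all 4 untreated ones, and untreated levels of the genotypes overlapped. The wild-type call was lost without knockout untreated replicate 1 (0.0804) or 2 (0.0699), wild-type untreated replicate 1 (0.128) or 2 (0.133), and wild-type DI replicate 1 (0.199) or 2 (0.0999). The knockout call was lost without knockout untreated replicate 1 (0.131) or 2 (0.101) or knockout DI replicate 1 (0.134). Psmb9 overlaps Tap1 on the opposite strand, and no source used here says whether the counting used strand. The shared stretch, 34187553 to 34187764, is at the 5′ ends of both genes, while reads were taken near 3′ ends. Its effect on the counts was not tested.

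Psmb8, which replaces Psmb5 (chromosome 17, 34197721 to 34201454, plus strand), had 257 and 264 CPM in wild-type untreated and 156 and 163 in wild-type DI libraries, a log2 difference of -0.71 ± 0.22 (adjusted p = 0.0506). Knockout libraries had 201 and 172 CPM untreated and 139 and 104 with DI, a difference of -0.62 ± 0.22 (adjusted p = 0.105). Its DI libraries were thus below their controls in both genotypes without passing the threshold in edgeR, while DESeq2 called the wild-type difference (adjusted p = 0.028). Psmb10, which replaces Psmb7, had 82.0 and 66.6 CPM in wild-type untreated, 78.7 and 62.0 in wild-type DI, 64.4 and 85.5 in knockout untreated, and 46.8 and 42.9 in knockout DI libraries. It was lowest in the 2 knockout DI libraries (-0.74 ± 0.24, adjusted p = 0.0752), while its wild-type groups overlapped (-0.08, adjusted p = 0.848). DESeq2 called the knockout difference of Psmb10 (adjusted p = 0.0475).

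Psme1 and Psme2 encode the alpha and beta subunits of PA28, an interferon-inducible cap of the core. Psme1 had 684 and 645 CPM in wild-type untreated and 371 and 372 in wild-type DI libraries, and it fell by 0.84 ± 0.25 on the log2 scale (adjusted p = 0.0429). In the knockout it had 561 and 465 CPM untreated and 597 and 365 with DI, which overlapped (-0.09, adjusted p = 0.844). The difference between the effects was 0.74 ± 0.36 (adjusted p = 0.203), so a difference between genotypes was not shown. The wild-type fall was lost without knockout untreated replicate 1 (0.0797) or 2 (0.0688), wild-type untreated replicate 1 (0.136) or 2 (0.125), and wild-type DI replicate 1 (0.13) or 2 (0.116).

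Psme2 had 57.1 and 47.5 CPM in wild-type untreated and 65.8 and 58.0 in wild-type DI libraries, and 53.9 and 46.3 against 38.7 and 47.6 in the knockout. It was the only one of the 5 with a higher mean under DI in wild type (0.24, adjusted p = 0.497). Its retrogene copy Psme2b, which the naming rule left out, had 76.5 and 110 CPM in wild-type untreated and 28.4 and 56.2 in wild-type DI libraries. Psme2b fell by 1.14 ± 0.32 in wild type (adjusted p = 0.0338; lost without wild-type untreated replicate 2 at 0.222, wild-type DI replicate 1 at 0.207 or knockout untreated replicate 1 at 0.053). Reads of such near-identical copies can be assigned to either gene, so the values of Psme2 and Psme2b are uncertain.

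**Figure D4:**
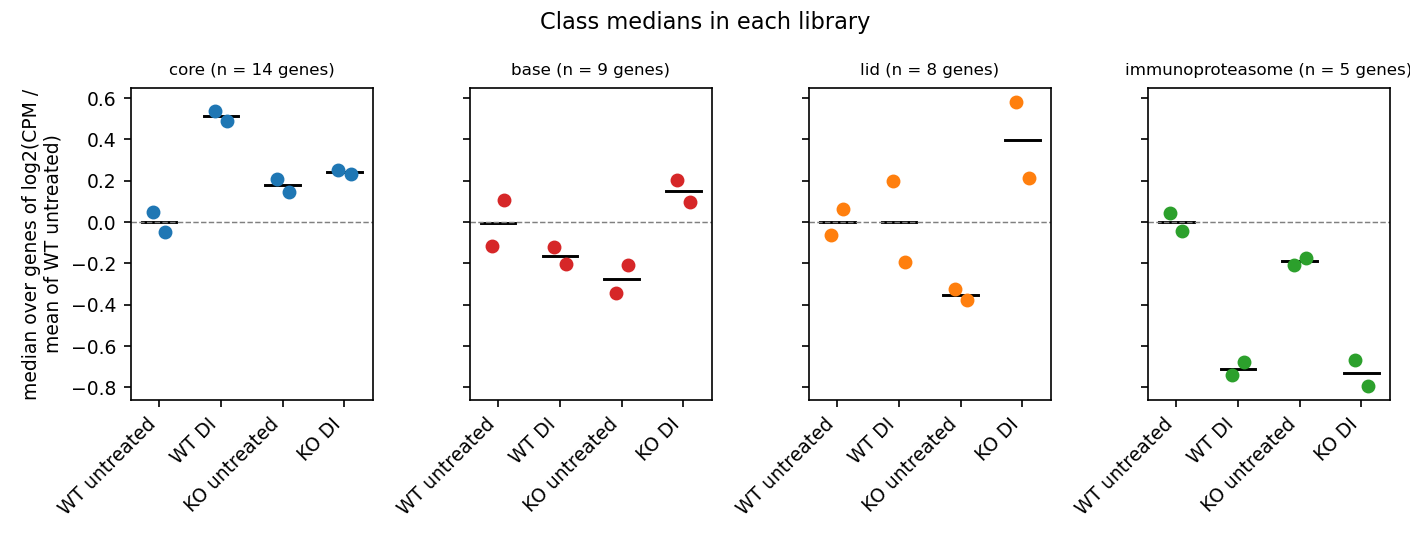
Median over the genes of a class of log2 CPM relative to the wild-type untreated mean; points are libraries and lines are means of 2 libraries. By this median per gene the core is highest with DI in wild type (0.54 and 0.49) and the lid with DI in the knockout (0.58 and 0.21). The mean summed CPM of the core is highest with DI in the knockout, where both libraries lie between those of wild-type DI. The immunoproteasome median is lower with DI in both genotypes (-0.74 and -0.68 in wild type, -0.67 and -0.79 in the knockout).

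The balance of each immunoproteasome subunit against the subunit it replaces was taken as the ratio of their counts within a library. Only differences of a ratio between groups are read, since levels of unlike genes depend on how each was primed and counted. For Psmb8 over Psmb5 the log2 ratio was 3.83 and 4.09 in wild-type untreated, 2.14 and 2.0 in wild-type DI, 3.99 and 3.58 in knockout untreated, and 3.57 and 2.77 in knockout DI libraries. It was thus 3.71-fold lower with DI in wild type and 1.53-fold lower in the knockout. The groups did not overlap in either, but in the knockout the nearest libraries, at 3.58 and 3.57, almost met. For Psmb9 over Psmb6 the log2 ratio was -0.11 and -0.08, -1.92 and -1.32, -0.14 and -0.07, and -1.67 and -1.12 in the same order of groups. That is a fall of the mean log2 ratio by 1.52 in wild type and by 1.29 in the knockout, again without overlap. For Psmb10 over Psmb7 it was 1.05 and -0.53, 0.19 and -0.38, 0.02 and 0.73, and -1.08 and -1.60. The wild-type groups overlapped, and the knockout ratio was lower with DI by 1.71 on the log2 scale. With 2 libraries against 2, an exact two-sided permutation test cannot give a p below 0.333, so these ratios carry no test.

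**Figure D5:**
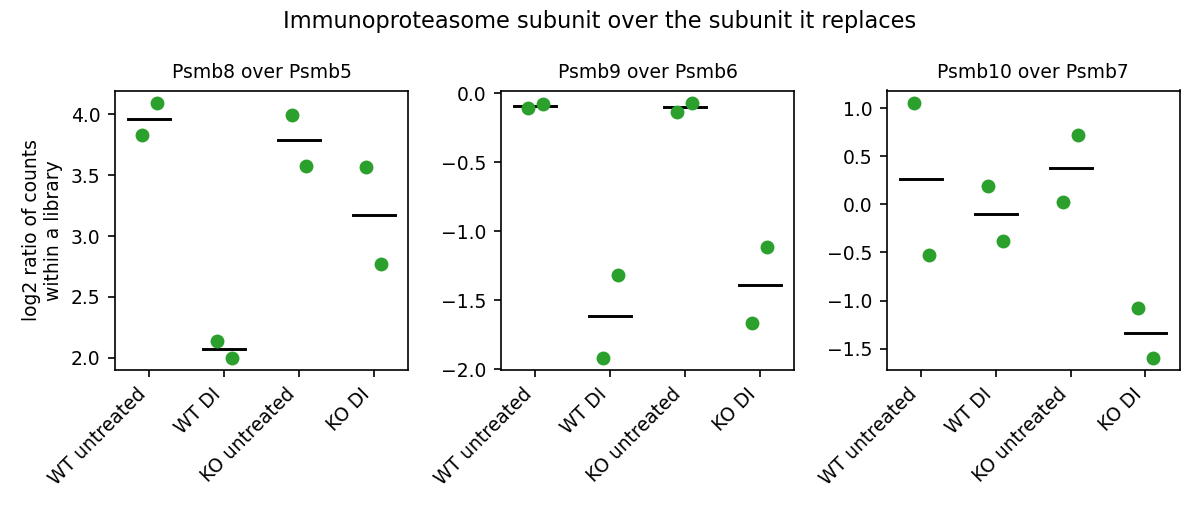
Log2 ratio of counts of an immunoproteasome subunit to the core subunit it replaces, per library (points) and as means of 2 libraries (lines). The ratios of Psmb8 to Psmb5 and of Psmb9 to Psmb6 are lower in DI libraries of both genotypes, and that of Psmb10 to Psmb7 in knockout DI libraries (-1.08 and -1.60).

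Assembly factors and other activators gave 2 calls under DI, both rises in wild type, where 6.51% of all tested genes rose. Psmd5, a chaperone that holds ATPases during base assembly, had 21.4 and 30.0 CPM in wild-type untreated and 49.8 and 51.6 in wild-type DI libraries, a log2 rise of 0.98 ± 0.25 (adjusted p = 0.0195). Its knockout libraries had 22.2 and 25.4 CPM untreated and 27.9 and 37.6 with DI (0.46, adjusted p = 0.27). The rise was lost without wild-type untreated replicate 1 (0.125) or wild-type DI replicate 1 (0.0504) or 2 (0.0643). Psme3, the gamma form of the PA28 cap found in the nucleus (chromosome 11, 101316213 to 101323537, plus strand), had 39.8 and 38.6 CPM in wild-type untreated and 64.4 and 73.7 in wild-type DI libraries, a log2 rise of 0.82 ± 0.21 (adjusted p = 0.0206). In the knockout its 4 libraries lay between 33.9 and 38.6 CPM, a log2 difference of -0.01 (adjusted p = 0.982). The difference between the effects did not pass (-0.83, adjusted p = 0.104), while in DI-treated cells the knockout was lower by a log2 difference of -0.93 ± 0.21 (adjusted p = 0.0094).

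The rise of Psme3 was lost without wild-type untreated replicate 1 (0.0741) or 2 (0.109) or wild-type DI replicate 2 (0.085), and its difference between genotypes under DI without knockout DI replicate 1 (0.0621). None of the 4 core chaperones Psmg1 to Psmg4, which pair alpha subunits into rings, passed either test (none at an unadjusted p under 0.05 in edgeR or called by DESeq2), with log2 differences from 0.09 to 0.36 in wild type and from -0.17 to 0.35 in the knockout. The base chaperones Psmd9 and Psmd10 had 0.13 to 0.36 in wild type and -0.98 to -0.17 in the knockout. Psme4, which encodes the cap PA200, and Psmf1, an inhibitor of the core, had -0.34 to 0.27 and -0.63 to 0.43.

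The interaction of genotype and DI and the genotype comparison under DI share libraries with the comparisons above, so their values stand beside those as restatements. By interaction the DI effect was higher in the knockout than in wild type for 2 members (Psmd12 and Psmc3) and lower for 1 (Psmb5), beside 4.96% and 2.59% of all tested genes. The class medians of the interaction were -0.43 for the core, 0.49 for the regulatory particle and 0.02 for all genes. In it 3 of 14 core genes and 14 of 17 regulatory particle genes were above 0, beside 51.0% of all tested genes. Under DI, 3 members were higher in knockout than in wild type (Psma7, Psmc3 and Psmd12) and 2 lower (Psmb5 and Psme3), beside 11.4% and 9.74% of all tested genes. Libraries did not overlap for 8 members higher and 18 lower in the knockout, beside 30.1% and 30.5% of all genes. Psma7, an alpha subunit, had 248 and 208 CPM in wild-type DI libraries and 310 and 520 in knockout DI libraries (log2 difference 0.86 ± 0.27, adjusted p = 0.0403). Without knockout DI replicate 2 its adjusted p was 0.292.

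Priming by a run of T can also start within A-rich coding stretches, so the comparisons were refitted after removing, per library, the trend of levels with the highest A count in any 15 bases of the coding sequence. In that fit the interaction medians were -0.19 for the core, 0.35 for the regulatory particle and 0.11 for the immunoproteasome. The adjusted p rose to 0.109 for the interaction of Psmb5 and to 0.129 for that of Psmc3, and under DI to 0.172 for Psma7 and 0.129 for Psmc3 between genotypes. It rose to 0.0505 for Psmb3 in wild type, and in the knockout to 0.0523 for Psmb9, 0.0612 for Psmd2 and 0.0623 for Psmd6. The other 13 of the 21 calls of members passed in that fit too. Among the partner genes described further on, it rose to 0.0622 for Uchl5 in wild type, to 0.0536 for Uchl5 and 0.0508 for Nfe2l1 in the knockout, to 0.0702 for the interaction of Adrm1 and to 0.0604 for Pomp between genotypes under DI.

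Several of these calls were lost in fits without 1 library. That of Psma7 was also lost without wild-type DI replicate 1 (0.0773) or 2 (0.153), knockout untreated replicate 1 (0.0646) or 2 (0.0582) or wild-type untreated replicate 1 (0.0506). The higher level of Psmc3 in knockout DI cells was lost without knockout untreated replicate 1 (0.0709) or 2 (0.0625), knockout DI replicate 1 (0.06) or 2 (0.202) or wild-type DI replicate 1 (0.254), and that of Psmd12 without knockout DI replicate 1 (0.0659) or wild-type DI replicate 2 (0.054). The interaction of Psmb5 was lost without any library except knockout DI replicate 2, with adjusted p from 0.0684 to 0.189. The interaction of Psmc3 was lost without knockout untreated replicate 1 (0.184) or 2 (0.121), wild-type untreated replicate 2 (0.198), knockout DI replicate 1 (0.0663) or 2 (0.113) or wild-type DI replicate 1 (0.147). The interaction of Psmd12 was lost without knockout untreated replicate 1 (0.093) or 2 (0.0962), wild-type untreated replicate 2 (0.086), knockout DI replicate 1 (0.0681) or wild-type DI replicate 1 (0.0529).

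In untreated cells no member differed between genotypes in edgeR (8 of 47 at an unadjusted p under 0.05, and none called by DESeq2), beside 0.0812% of all tested genes called higher and 0.524% called lower. The core median was 0.22, the immunoproteasome median -0.06, and 20 of 47 members lay lower in the knockout without overlap beside 21.7% of all genes. Psma8 had the largest member difference, with 2.62 and 3.95 CPM in wild type and 0.525 and 0.977 in the knockout (-2.05 ± 0.56, adjusted p = 0.153), from 3 and 9 counts in the knockout libraries.

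Partners of the proteasome that lie outside the naming rule were followed in a list of 20 genes, of which 19 were tested and Paaf1 was not matched. In wild type 1 rose and 1 fell (median 0.12), beside 6.51% and 8.68% of all tested genes. In the knockout 4 rose and none fell (median 0.43), beside 4.49% and 4%. Nfe2l1, which encodes NRF1 (chromosome 11, 96817414 to 96829968, minus strand), had 301 and 266 CPM in wild-type untreated and 181 and 178 in wild-type DI libraries (-0.66 ± 0.21, adjusted p = 0.0527). In the knockout it had 268 and 267 CPM untreated and 491 and 414 with DI, a log2 rise of 0.76 ± 0.21 (adjusted p = 0.0453). Its DI libraries thus lay below the controls in wild type and above them in the knockout, and the effects differed by 1.42 ± 0.30 (adjusted p = 0.0154). Pomp, the maturation factor of the core, had 126 and 114 CPM in wild-type untreated and 192 and 183 in wild-type DI libraries (0.64, adjusted p = 0.0591), and 119 and 133 against 99.0 and 114 in the knockout (-0.24, adjusted p = 0.501). Under DI it was lower in the knockout by a log2 difference of -0.81 ± 0.21 (adjusted p = 0.0179).

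Adrm1, a ubiquitin receptor of the base, had 16.4 and 11.3 CPM in knockout untreated libraries and 48.0 and 33.0 with DI, a log2 rise of 1.56 ± 0.29 (adjusted p = 0.0091). Its wild-type libraries, 31.2 and 31.4 CPM untreated and 23.2 and 33.3 with DI, overlapped. Uchl5, the deubiquitinase that binds Adrm1, had 41.2 and 83.5 CPM in wild-type untreated and 23.6 and 30.9 in wild-type DI libraries, and it fell by 1.19 ± 0.32 (adjusted p = 0.0256). Its knockout libraries had 32.4 and 24.4 CPM untreated and 62.5 and 76.1 with DI, a log2 rise of 1.29 ± 0.32 (adjusted p = 0.0299). Wild-type DI and knockout untreated libraries were the 4 low ones. Txnl1, a thioredoxin-like protein bound to the regulatory particle, rose in the knockout from 65.6 and 106 to 232 and 238 CPM (1.45 ± 0.28, adjusted p = 0.0102). Ecpas, which tethers proteasomes and affects their disassembly, rose in wild type from 172 and 184 to 345 and 440 CPM (1.14 ± 0.23, adjusted p = 0.00557).

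Most of these calls were lost in some fits without 1 library as well. The rise of Nfe2l1 in the knockout was lost without knockout untreated replicate 1 (0.238) or 2 (0.242), wild-type untreated replicate 1 (0.058) or 2 (0.0569) or knockout DI replicate 1 (0.211) or 2 (0.0535), and its interaction without knockout untreated replicate 1 (0.0872) or 2 (0.0825). Adrm1 lost its rise without knockout untreated replicate 2 (0.106) or knockout DI replicate 1 (0.0565), and Txnl1 without knockout untreated replicate 1 (0.121). Uchl5 lost its fall in wild type without wild-type untreated replicate 2 (0.277, log2 difference -0.59) or wild-type DI replicate 1 (0.163) or 2 (0.0673), and its rise in the knockout without knockout untreated replicate 1 (0.12) or 2 (0.214) or knockout DI replicate 1 (0.0799) or 2 (0.0947). Pomp lost its difference between genotypes under DI without knockout DI replicate 1 (0.105) or wild-type DI replicate 1 (0.0543). The rise of Ecpas in wild type passed without each library in turn, and so did the difference of Uchl5 between the DI effects (2.48 ± 0.45, adjusted p = 0.00781; 1.89 without wild-type untreated replicate 2).

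Of 16 tested ubiquitin and p97 genes, 1 rose in each genotype and none fell (medians 0.30 in wild type and 0.46 in the knockout). Of all tested genes, 6.51% rose in wild type and 4.49% in the knockout. Uba1, the main ubiquitin-activating enzyme, rose in wild type from 75.8 and 67.2 to 129 and 172 CPM (1.07 ± 0.24, adjusted p = 0.0106), and had 81.0 and 85.0 against 50.9 and 69.4 CPM in the knockout. Faf1, a p97 cofactor, had 14.2 and 17.4 CPM in knockout untreated and 56.7 and 23.4 in knockout DI libraries, a log2 rise of 1.34 (adjusted p = 0.0374). Knockout DI replicate 1 was the high one, and without it the log2 difference was 0.56. Of 12 genes of class I presentation and its interferon control, none rose and 1 fell in the knockout (1 higher at an unadjusted p under 0.05 in edgeR, and none by DESeq2). Of all tested genes, 4.49% rose and 4% fell there. The median log2 differences of these 12 genes were -0.29 in wild type and -0.37 in the knockout. B2m, the light chain of class I, had 6147 and 17630 CPM in knockout untreated and 4754 and 4014 in knockout DI libraries, and it fell by 1.44 on the log2 scale (adjusted p = 0.0393). Knockout untreated replicate 2 was the highest of the 8 libraries, and without it the log2 difference was -0.48. Uba1 missed the threshold without wild-type untreated replicate 2 (0.0854) or wild-type DI replicate 2 (0.0628). Faf1 missed it without knockout untreated replicate 1 (0.23) or 2 (0.162), wild-type untreated replicate 1 (0.0535) or 2 (0.0528) or knockout DI replicate 1 (0.318), and also with a replicate block (0.0509), with the A-rich trend removed (0.064) and with only the groups compared (0.0617). With only the groups compared B2m had an adjusted p of 0.0581. Of the fits without 1 library, B2m kept its call only without knockout untreated replicate 1, and its adjusted p was 0.476 without knockout untreated replicate 2 and 0.0527 to 0.164 without each of the others.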

How the data were processed

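The authors deposited unnormalised counts for 22165 Ensembl genes in each library. Per the submitters' processing notes, the authors used mm10, STAR, HTSeq and DESeq2; versions, settings and the annotation used for counting are not given in the sources used here. Per the labels' protocols, an oligo-dT primer with a library barcode was used and strand-specific libraries were amplified by PCR. No molecular identifier is described, so intervals and floors cover counting error only. Symbols and coordinates come from GENCODE M21 (GRCm38, the assembly called mm10), which matched 21745 genes.

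Genes passing edgeR's filterByExpr by group (minimum count 10) numbered 11079. All 8 libraries were fitted with edgeR 4.0.16 (R 4.3.3; TMM, robust quasi-likelihood F-test, 1 mean per group), with Benjamini-Hochberg adjustment over all tested genes and a threshold of 0.05. CPM were computed here from the counts and scaled library sizes, and errors of log2 differences are the fit's standard errors. The fit was tested on simulated data. Of the members, 8 had fewer than 100 counts in some library. Another gene overlaps 9 members on the same strand and 18 on the opposite strand, and Psmb5, Psmb6 and Psmb7 have a named processed pseudogene.

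The members and lists were chosen with earlier results of these data known. Named with values per library were the immunoproteasome genes, the catalytic subunits they replace, members outside the main classes called in any comparison, and in core, base and lid the 3 members with the smallest p in each DI comparison and the 2 with the smallest p in the interaction. Of the pathway lists, Pomp, Adrm1, Nfe2l1 and up to 4 called genes per DI comparison were named. Psme2b, Psma8 in untreated cells and the examples of other calls were named after their values were seen. Alternatives were DESeq2 1.42.0, its size factors in edgeR, no filter on low counts, a block by replicate number, only the groups compared, removal of the trend with A-rich coding sequence, and leaving out each library in turn. No protein sequences were used here, and 1 result of a pathway list is not reported here.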

Additional observations from a re-analysis of the deposited data

Results flagged for a closer look

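In 3 members the log2 effect of DI differed between the genotypes by the interaction test of edgeR, 2 libraries per group and adjusted over all tested genes. Psmb5 had an interaction of -1.19 (adjusted p = 0.0498), Psmc3 of 1.66 (adjusted p = 0.05, just under the threshold) and Psmd12 of 1.5 (adjusted p = 0.0225). The same test passed for 4 genes of the pathway lists: Adrm1 with 1.70 (adjusted p = 0.0234), Uchl5 with 2.48 (adjusted p = 0.00781), Nfe2l1 with 1.42 (adjusted p = 0.0154) and the ubiquitin-activating enzyme gene Uba1 with -1.54 (adjusted p = 0.0195). A positive value means a higher signed log2 effect in the knockout, not necessarily a larger one in size (Uchl5 had -1.19 in wild type and 1.29 in the knockout). Of these, only the call of Uchl5 held without each library in turn. Without one of the libraries on which it was lost, the adjusted p of Uba1 was 0.0648 to 0.0806 (knockout untreated replicate 1 or 2, wild-type untreated replicate 2 or knockout DI replicate 1), and that of Adrm1 was 0.0506 to 0.12 (each library except knockout DI replicate 2 and wild-type DI replicate 2).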

How the results depend on the processing

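No result changed sign past its threshold. With only the groups compared in the fit, 3 members rose and 1 fell under DI in wild type, and 1 was higher in knockout than in wild type under DI. That fit also ended the knockout calls of Psmd2 (adjusted p = 0.0537) and Psmd6 (0.0534), though 5 members rose there in all. DESeq2 gave 8 higher and 2 lower under DI in the knockout, and 2 lower in the interaction. Without the filter on low counts the corresponding counts were 9, 2 and 2, and in untreated cells 2 members were higher in the knockout and 1 lower. With DESeq2's size factors 1 member was higher in the interaction (Psmc3 missed the threshold at 0.0521), and Psmd6 missed it under DI in the knockout (0.051). With the A-rich trend removed, 3 members rose and 0 fell under DI in the knockout, and 1 was higher and 0 lower in the interaction. In that fit the immunoproteasome medians were -0.85 (DI in wild type), -0.41 (DI in knockout), 0.11 (interaction, against -0.30) and -0.10 (knockout against wild type under DI), the core medians 0.22 (DI in knockout), -0.19 (interaction) and -0.055 (knockout against wild type under DI), and the regulatory particle median 0.35 (interaction). The cause of these shifts was not tested.

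Correlations of same-numbered libraries' deviations from their group means ran from -0.0799 to 0.156 over the 6 pairs of groups. These values show no strong pairing by number, and the labels state none. They cannot tell whether same-numbered libraries share a mouse or culture. A replicate block left 0 members lower in the interaction (Psmb5, adjusted p = 0.0562) and ended the calls of Psmd2 (0.0596) and Psmd6 (0.0581) under DI in the knockout.

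Leaving out each library in turn leaves 1 group with a single library, which is then assumed to vary like the others. Under DI in wild type, 1 to 5 members rose and 0 to 3 fell, with medians of 0.37 to 0.56 (core), -0.16 to 0.12 (regulatory particle) and -0.73 to -0.64 (immunoproteasome). Under DI in the knockout, 0 to 6 rose and 0 to 1 fell, with medians of 0.00 to 0.18, 0.55 to 0.80 and -0.81 to -0.42 in the same order. In the interaction, 0 to 2 were higher and 0 to 1 lower, with medians of -0.62 to -0.34, 0.35 to 0.61 and -0.60 to -0.13. Between genotypes under DI, 1 to 3 were higher and 1 to 3 lower, with medians of -0.34 to -0.21, 0.062 to 0.46 and -0.58 to -0.38. Between untreated genotypes, 0 were called in any of these fits, with medians of 0.14 to 0.30, -0.37 to -0.15 and -0.21 to 0.045. Of 21 calls of members, 1 passed without every single library (Psmb5 between genotypes under DI). Genes with few counts, such as Psma8, and libraries of lower depth limit what could be detected with 2 libraries per group.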

Other observations

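Psmd10, a base chaperone also known as gankyrin, had 104 CPM in knockout untreated replicate 1 and 31.5 to 51.0 CPM in the other 7 libraries. Without the filter on low counts, Psma2, Psmd10 and Psma8 passed the edgeR test between untreated genotypes. These values were noticed after the data were seen.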
